A study of Mus musculus with 2 samples.

Results

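Isl1 peaks that the list of E8.25-E9 embryos assigned to chemosensory receptor genes were examined as a contrast for how peaks are given to genes. A peak belonged to this set when the gene symbol beside it started with Olfr, Vmn1r, Vmn2r or Tas2r. By this rule 795 of 48295 peaks (1.65%) were receptor peaks. They carried 515 receptor symbols and comprised 496 Olfr, 101 Vmn1r, 167 Vmn2r and 31 Tas2r peaks. The rule used only the assigned symbol, and not the position, width or sequence of a peak.

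Isl1 binding was mapped by chromatin immunoprecipitation followed by sequencing in C57BL/6 mouse embryos, to identify the genes that Isl1 binds during early heart formation. Cardiogenic mesoderm together with the heart region was taken from E8.25-E9 embryos, and 60 to 80 embryos were pooled. No transgene or mutation is named for these embryos, and binding was captured with the anti-Isl1 antibody clone 39.4D5 from DSHB. There was 1 list of peaks, from 1 immunoprecipitated sample, and the matching input chromatin was not analysed here. The list gives the position of a peak, its distance to a transcription start site (TSS) and a gene, with no height, enrichment or p-value, and the depth is unknown. With no values of separate replicates, results are given below with 95% intervals for counting error alone and without a test. Receptor genes of a cluster also share sequence and neighbours, so that they are not independent of each other.

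The receptors encoded by these genes are G protein-coupled receptors of the chemical senses. Olfr genes encode the odorant receptors of the main olfactory epithelium, where each mature neuron expresses a single one of them. Vmn1r and Vmn2r genes encode the pheromone receptors of the apical and basal layers of the vomeronasal organ, and Tas2r genes encode bitter taste receptors of the tongue and palate. The genes lie in tandem arrays that arose by local duplication, and they are generally held in silent chromatin outside sensory cells. Isl1 is a LIM homeodomain transcription factor of second heart field progenitors, and its homeodomain recognizes sequences with a TAAT core. Expression of the receptor genes was not measured in the file used here.

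The sequences below show what lay under the receptor peaks. Each is the 200 bp around the midpoint of a peak on the forward strand of mm9, 5′ to 3′, and capitals mark the longest uninterrupted run of purines or of pyrimidines where that run reached 25 bp. The first 2 are the closest peaks of the genes with the most peaks in the Vmn2r and Tas2r families.
Vmn2r-ps159, chrX:121442631-121442830: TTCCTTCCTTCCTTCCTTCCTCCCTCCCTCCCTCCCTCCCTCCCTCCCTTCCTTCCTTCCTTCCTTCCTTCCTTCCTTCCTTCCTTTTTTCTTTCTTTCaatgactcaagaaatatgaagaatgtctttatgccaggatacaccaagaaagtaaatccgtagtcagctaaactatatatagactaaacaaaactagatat
Tas2r134, chr2:51513517-51513716: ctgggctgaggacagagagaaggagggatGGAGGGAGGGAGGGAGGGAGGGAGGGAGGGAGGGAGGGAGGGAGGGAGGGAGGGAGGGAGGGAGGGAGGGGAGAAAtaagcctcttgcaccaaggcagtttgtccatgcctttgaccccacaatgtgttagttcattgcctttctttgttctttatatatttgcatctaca

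The next 3 are the receptor peak nearest to a TSS by the deposited distance, the narrowest one and the one with the longest run. In the last of these the run filled the whole window.
Olfr915, chr9:38455149-38455348: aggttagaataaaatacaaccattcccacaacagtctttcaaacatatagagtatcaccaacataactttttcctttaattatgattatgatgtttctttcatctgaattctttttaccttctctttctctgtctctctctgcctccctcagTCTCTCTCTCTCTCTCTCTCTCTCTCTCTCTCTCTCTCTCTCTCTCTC
Olfr228, chr2:86327023-86327222: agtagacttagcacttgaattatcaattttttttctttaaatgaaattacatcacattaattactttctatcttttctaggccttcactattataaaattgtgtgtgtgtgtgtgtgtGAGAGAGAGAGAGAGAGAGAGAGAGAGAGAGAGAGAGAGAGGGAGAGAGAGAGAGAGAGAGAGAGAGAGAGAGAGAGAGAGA
Olfr467, chr7:114952968-114953167: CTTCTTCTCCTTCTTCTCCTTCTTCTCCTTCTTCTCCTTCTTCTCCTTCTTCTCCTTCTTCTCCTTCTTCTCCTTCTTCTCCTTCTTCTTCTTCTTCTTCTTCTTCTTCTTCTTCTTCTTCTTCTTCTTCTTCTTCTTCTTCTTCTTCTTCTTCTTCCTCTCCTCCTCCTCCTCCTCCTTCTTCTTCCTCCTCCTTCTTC

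The last belongs to the receptor peaks without such a run in this window, and is the one of them nearest to a TSS.
Olfr186, chr16:59028485-59028684: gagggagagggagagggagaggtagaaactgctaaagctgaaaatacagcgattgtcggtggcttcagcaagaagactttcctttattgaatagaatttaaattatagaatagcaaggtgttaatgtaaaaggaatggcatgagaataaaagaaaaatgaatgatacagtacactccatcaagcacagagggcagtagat

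The window of Olfr467 was made wholly of C and T, and those of Olfr915 and Olfr228 ended in CT and GA dinucleotide repeats. The window of Vmn2r-ps159 began with its run, whereas that of Tas2r134 had other sequence on both sides. The window of Olfr186 held no such repeat beyond its first bases.

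Receptor genes had a peak less often than other genes. Of 1475 protein-coding receptor genes in the GENCODE annotation of mm9, 491 (33.3%, 95% Wilson interval 30.9 to 35.7%) had at least 1 peak in the list, where 45.5% of all 22225 protein-coding genes had one. The other 20750 protein-coding genes had a peak in 46.4% of cases (interval 45.7 to 47.1%). These counts join peaks to genes by symbol. When peaks were joined to the closest GENCODE protein-coding TSS instead, 34.7% of receptor genes and 56.0% of other genes had one. The families differed among themselves. A peak was listed for 333 of 1113 Olfr genes (29.9%, interval 27.3 to 32.7%), 68 of 202 Vmn1r genes (33.7%, interval 27.5 to 40.4%) and 14 of 35 Tas2r genes (40%, interval 25.6 to 56.4%). Vmn2r genes stood above these and above the background, with 76 of 125 (60.8%, interval 52.0 to 68.9%). The interval of Tas2r overlapped those of all other families, whereas the interval of Vmn2r did not overlap those of Olfr and Vmn1r. Of the 515 receptor symbols in the list, 491 were protein-coding in the annotation, 9 had another biotype and 15 were not found in it.

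The gap to other genes was small when only near peaks were counted. A peak within 10 kb of the TSS was listed for 314 receptor genes (21.3%, interval 19.3 to 23.5%), beside 22.6% of all protein-coding genes. In this count Olfr genes reached 22.2% and Vmn2r genes 16.0% (interval 10.6 to 23.4%), the reverse of their order over all distances, but here their intervals overlapped. At least 2 peaks were listed for 147 receptor genes (10.0%) and for 26.9% of all protein-coding genes.

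**Figure D1:**
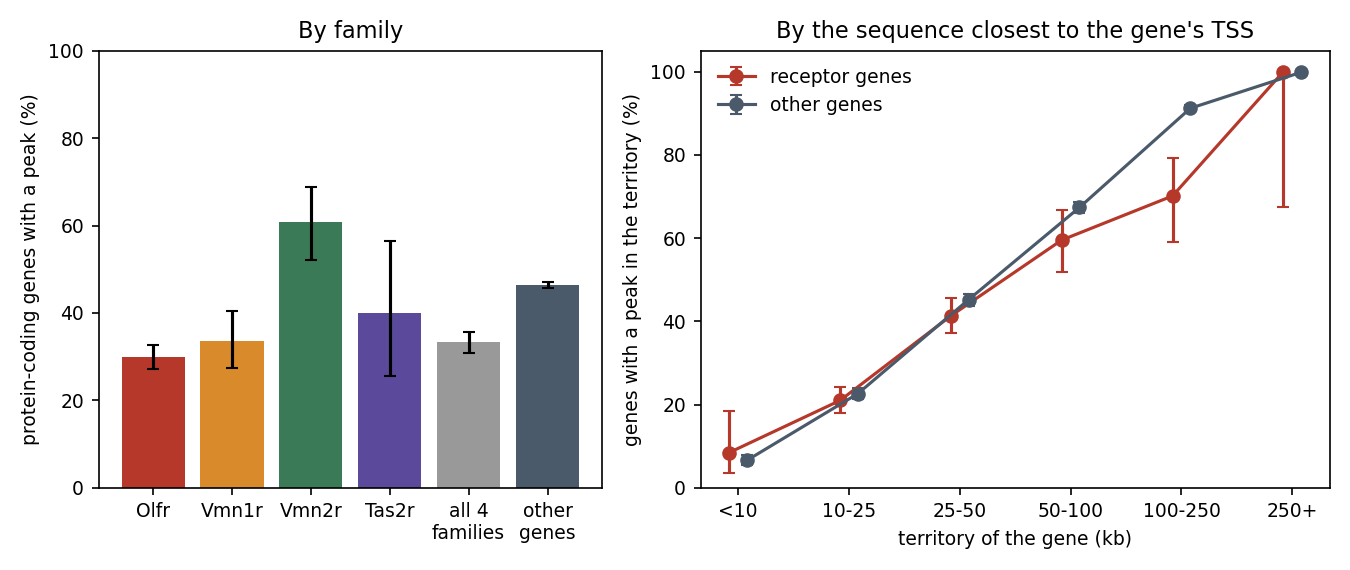
Left, the percentage of protein-coding genes with at least 1 peak by receptor family, for all 4 families and for other genes. Right, the percentage of genes with a peak in their territory, the sequence closer to their TSS than to that of any other protein-coding gene, by the size of that territory in kb. Bars and points are shares with 95% Wilson intervals, and receptor and other genes lie close together up to 50 kb. At 100 to 250 kb receptor genes stood at 70.1% and other genes at 91.2%, and at 250 kb or more at 100% and 99.8%.

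The amount of sequence that a closest-TSS rule gives to a gene differed between receptor and other genes. The territory of a gene, taken as the sequence closer to its TSS than to the TSS of any other protein-coding gene, had a median of 25.4 kb for receptor genes and 48.5 kb for other genes. The order of the families by territory was Olfr with 22.1 kb, Tas2r with 24.0 kb, Vmn1r with 36 kb and Vmn2r with 84.7 kb. Receptor genes with a peak had a median territory of 34.7 kb, and those without a peak 22.2 kb. Among genes with a territory of 10 to 25 kb, 21.0% of 667 receptor genes (interval 18.1 to 24.2%) and 22.6% of 4055 other genes had a peak in it. At 25 to 50 kb the shares were 41.3% of 496 receptor genes (interval 37.1 to 45.7%) and 45.2% of 4742 other genes. For these sizes the value of other genes lay inside the interval of receptor genes. At 50 to 100 kb it lay just above, with 59.5% of 168 receptor genes (interval 52.0 to 66.7%) and 67.4% of 4317 other genes. At 100 to 250 kb the gap was wider, with 70.1% of 77 receptor genes (interval 59.2 to 79.2%) and 91.2% of 3514 other genes. The median territory at this size was 124.7 kb for receptor genes and 145.5 kb for other genes. At 250 kb or more, all 8 receptor genes and 99.8% of 2328 other genes had a peak.

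The territories of receptor genes together spanned 54.8 Mb, or 2.14% of the genome, and held 757 peaks. This amounted to 13.8 peaks per Mb (exact Poisson interval 12.8 to 14.8), beside 19.0 peaks per Mb (interval 18.8 to 19.2) in the rest of the genome. Tas2r territory held 19.7 peaks per Mb (interval 13.9 to 27.2) and Olfr territory 15.2 (interval 13.9 to 16.7). Vmn2r territory held 11.6 (interval 9.82 to 13.7) and Vmn1r territory 10.6 (interval 8.62 to 13.0). Vmn2r genes thus had the highest share of genes with a peak and a density below that of Olfr genes, and the intervals of these densities did not overlap.

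A receptor gene that had a peak usually had 1. Of the 515 symbols, 362 (70.3%) had a single peak, 99 had 2 and 54 had 3 or more, with a mean of 1.54 and a median of 1. Over all 12972 symbols of the list the mean was 3.72 and the median 2, with 39.8% at a single peak. At least 5 peaks were listed for 15 receptor symbols (2.91%) and for 22.4% of all symbols. Vmn2r and Tas2r genes had a mean of 2.11 and 2.21 peaks, and Olfr and Vmn1r genes 1.42 and 1.38.

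Receptor peaks lay nearer to the TSS they were given than the peaks of the list did. Their median distance was 10.8 kb (interval from order statistics 9.32 to 12.1 kb), against 58.8 kb over the whole list. The median was 7.36 kb for Olfr peaks, 10.7 kb for Vmn1r, 30.6 kb for Tas2r and 31.9 kb for Vmn2r. Within 10 kb of the TSS were 383 receptor peaks (48.2%, interval 44.7 to 51.7%) and 15.9% of the list. Beyond 100 kb there were 57 receptor peaks (7.17%, interval 5.57 to 9.18%) and 37.5% of the list. Part of every such distance is set by how far apart neighbouring TSSs are. Measured by GENCODE, as a share of the way from the TSS to the boundary of its territory, receptor peaks had a median position of 47.7% (interval 44.3 to 51.2%) and other peaks of 49.7% (interval 49.2 to 50.1%). On this scale the value of other peaks lay inside the interval of receptor peaks.

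**Figure D2:**
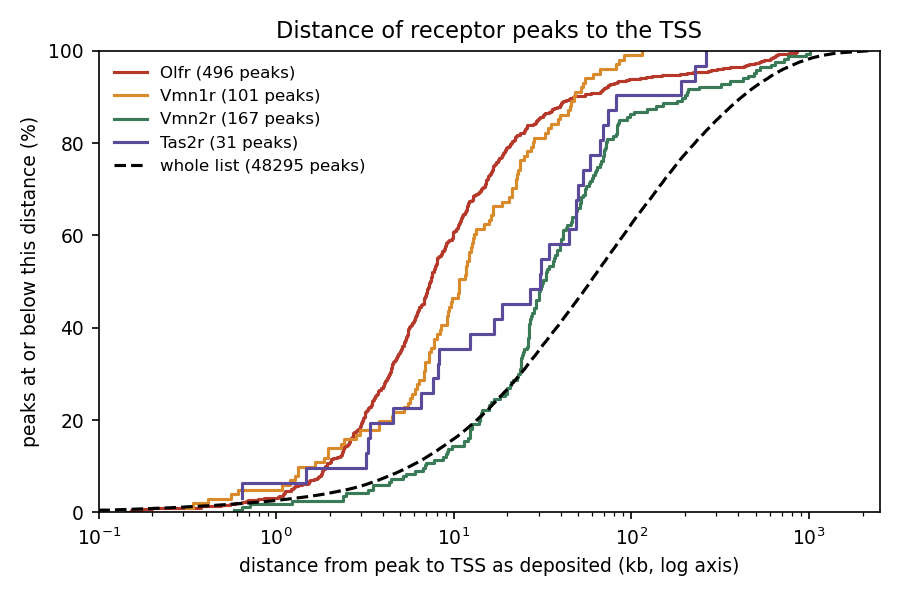
Cumulative percentage of peaks by the deposited distance to the TSS in kb on a log axis, for the 4 receptor families and for the whole list. Olfr, Vmn1r and Tas2r peaks reach 50% at 7.36, 10.7 and 30.6 kb and Vmn2r peaks at 31.9 kb, all to the left of the list, which reaches it at 58.8 kb.

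Within 1 kb of the TSS, receptor peaks were thinner than those at other genes and lay almost wholly upstream. Within 1 kb of a protein-coding receptor TSS there were 8.96 peaks per Mb (interval 5.95 to 13.0), beside 19.8 per Mb (interval 18.8 to 20.8) within 1 kb of other TSSs. At 1 to 10 kb the densities were 15.9 (interval 14.3 to 17.6) and 16.8 per Mb. By the deposited distances, 25 receptor peaks (3.14%) lay within 1 kb, of which 24 were upstream and 1, of Vmn2r23, was downstream. All 11 receptor peaks within 500 bp were upstream, where 42.9% of the 795 peaks of the whole list within 500 bp were. Farther out the sides were more even, with 49 of 74 receptor peaks within 2 kb upstream (66.2%, interval 54.9 to 76.0%) and 133 of 214 within 5 kb (62.1%, interval 55.5 to 68.4%), beside 52.5% and 54.6% of the list. The 10 genes with the nearest peaks were Olfr915 at 142 bp, Olfr1375 at 152 bp, Olfr103 at 153 bp, Olfr633 at 176 bp, Olfr394 at 199 bp, Vmn1r210 at 311 bp, Vmn1r207-ps at 341 bp, Olfr986 at 377 bp, Olfr1361 at 378 bp and Vmn1r206 at 412 bp. Olfr915 and Olfr1375 are not in the annotation used here. By GENCODE, the closest protein-coding TSS to their peaks was that of Olfr916 at 10726 bp and of Olfr1375-ps1 at 152 bp. Vmn1r206, Vmn1r207-ps and Vmn1r210 lie in the same cluster on chromosome 13. Each of these 10 peaks held a run in its central 200 bp, from 44 bp at Vmn1r207-ps to 183 bp at Olfr986. Runs can reach beyond this window, and over the whole peak that of Olfr1361 had 242 bp.

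Gene models and runs around the TSS were measured beside these values. For 902 of 1475 receptor genes (61.2%, interval 58.6 to 63.6%) the annotated start was the first base of the coding sequence, so that the model held no 5′ untranslated exon, and this was so for 8.23% of other genes. In the 1 kb upstream of the receptor starts there were 205 runs of at least 25 bp, and in the 1 kb downstream 42. Per 1000 genes this was 139.0 upstream and 28.5 downstream at receptor genes, against 214.9 and 147.8 at other genes. Runs were thus scarcer on both sides of receptor starts, and more so downstream. The part of gene models and runs in the upstream position of the near peaks was not tested.

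A run lay under nearly every receptor peak. Within 100 bp of the midpoint, 755 of 795 receptor peaks (95%, interval 93.2 to 96.3%) had 25 or more consecutive purines or as many consecutive pyrimidines, where 94.1% of all peaks of the list did. The share was 94.6% for Olfr, 96.0% for Vmn1r, 96.4% for Vmn2r and 90.3% for Tas2r peaks, and the 4 intervals overlapped. At 1 kb on each side of the midpoint, a 200 bp window held a run at 3.21% of the receptor positions and at 3.95% of those of the list. Within the central 200 bp the median length of the run was 100 bp for receptor peaks and 96 bp for the list. Over the whole peak it was 115 and 114 bp. Its purines were on the forward strand in 372 of the 755 peaks (49.3%) and on the sense strand of the receptor gene in 340 of the 726 whose gene is annotated (46.8%, interval 43.2 to 50.5%). Read on the purine strand, the commonest unit was AGAG, which led in 361 peaks (47.8%), followed by AGGG in 180 (23.8%), AAAG in 110 (14.6%) and AAGG in 103 (13.6%).

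The TAAT core, which can be bound by homeodomains, was searched on both strands in the same windows. It was present at 307 receptor peaks (38.6%, interval 35.3 to 42.0%) and at 35.3% of the list. In the windows 1 kb away it was commoner, with 80.1% beside receptor peaks and 73.4% beside all peaks. TAAT mixes purines and pyrimidines and so cannot lie inside a run. Most central windows held a run and few of those 1 kb away did, so this difference cannot be read for the core alone. Both peaks and their surroundings were poorer in GC around receptors. The median GC content was 46.5% at receptor peaks and 39.5% in the windows beside them, against 49% and 42.0% for the list. At least 4 consecutive units of GA or CT, which overlap the runs, were found at 57.6% of receptor peaks (interval 54.2 to 61.0%) and 55.1% of the list.

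Seen from the runs, long runs in receptor territory were under a peak at the share found elsewhere. Receptor territory held 2870 runs of at least 50 bp, or 52.4 per Mb, and the rest of the genome 69.5 per Mb. Of the 2870 runs, 879 (30.6%, interval 29 to 32.3%) shared at least 1 bp with a peak, and over the whole genome 30.6% of 176892 runs did. The share was 31.6% in Olfr, 28% in Vmn1r, 29.1% in Vmn2r and 31.5% in Tas2r territory. It grew with the length of the run in the same way in both. Runs of 50 to 99 bp were under a peak in 20.8% of cases in receptor territory and 21.2% elsewhere, those of 100 to 199 bp in 44.0% and 43.7%, and those of at least 200 bp in 68.8% (interval 62.4 to 74.5%) and 71.8%. Peaks without a run in the central 200 bp numbered 0.693 per Mb in receptor territory and 1.13 per Mb elsewhere.

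**Figure D3:**
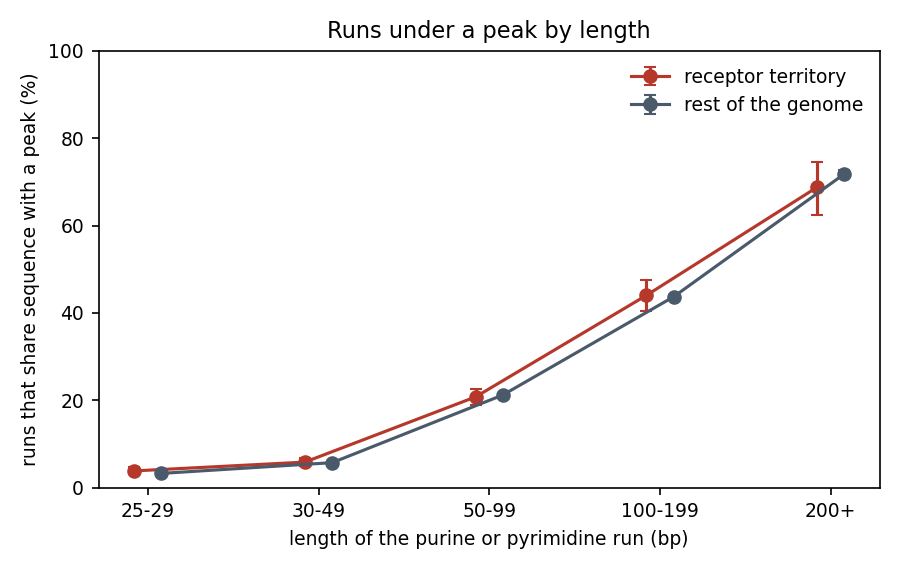
Percentage of purine or pyrimidine runs that share at least 1 bp with a peak, by the length of the run in bp, in receptor territory and in the rest of the genome, with 95% Wilson intervals. The lines nearly coincide, and reach 68.8% and 71.8% for runs of at least 200 bp.

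Clusters of receptor genes differed in their density of peaks. Receptor genes no more than 1 Mb apart formed 72 clusters, of which 29 had at least 10 protein-coding genes and 4 had no peak. Among these 29 the density ranged from 5.81 to 28.5 peaks per Mb with a median of 13.4, and the share of genes with a peak from 15.8 to 56.2%. The largest cluster, with 221 Olfr genes from Olfr987 to Olfr1272 on chromosome 2 (mm9, 85171054 to 90241831), had the lowest share. In it 35 genes (15.8%) had a peak, at 8.85 peaks per Mb (interval 6.43 to 11.9). The cluster of 129 Olfr genes from Olfr543 to Olfr692 on chromosome 7 (109625287 to 112517869) had 19.2 peaks per Mb (interval 13.9 to 25.8), and 34 of its genes (26.4%) had one. The intervals of these 2 clusters did not overlap although their runs of at least 50 bp were about as dense, at 53.1 and 48.6 per Mb. Of those runs, 22.3% were under a peak in the first cluster and 42.2% in the second.

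The lowest density was that of the cluster of 64 Vmn1r genes from Vmn1r91 to Vmn1r183 on chromosome 7 (20686507 to 24840710), with 5.81 peaks per Mb (interval 3.18 to 9.76) and 14.1 long runs per Mb, the fewest of the 29. The highest was that of the 20 Olfr genes from Olfr16 to Olfr220 on chromosome 1, with 28.5 peaks per Mb (interval 16.9 to 45.0) and 60.1 long runs per Mb. Across the 29 clusters the density of long runs and that of peaks rose together (Pearson's r = 0.73, Spearman's rho = 0.63). This is a description of 1 library, in which most peaks themselves contain a counted run and small clusters rest on as few as 4 peaks.

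**Figure D4:**
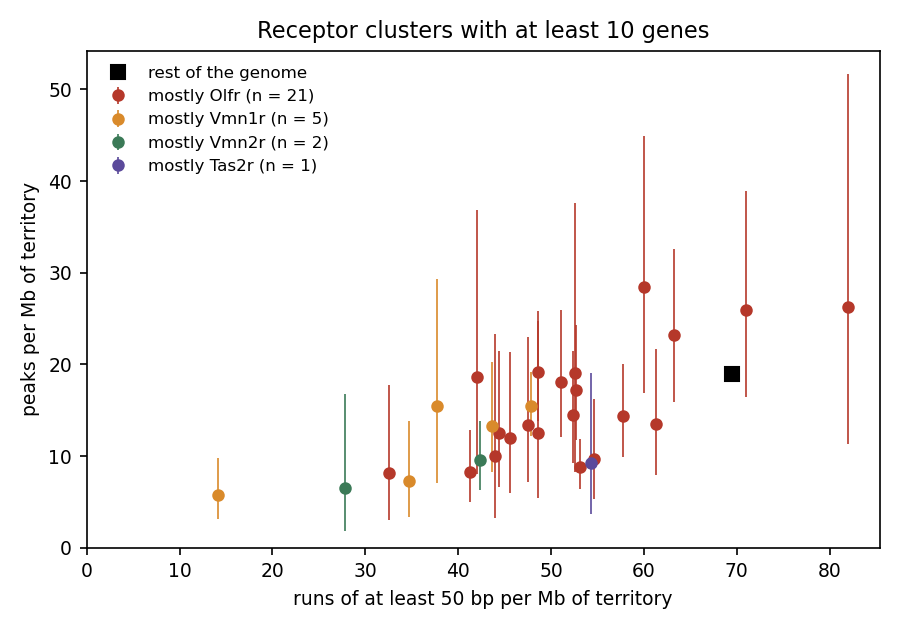
Peaks per Mb of territory against runs of at least 50 bp per Mb, for the 29 receptor clusters with at least 10 genes, coloured by their most frequent family, with exact 95% Poisson intervals. The square is the rest of the genome at 69.5 runs and 19.0 peaks per Mb, and the Vmn1r cluster with 14.1 runs per Mb is the leftmost point, at 5.81 peaks per Mb.

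Chromosome 7 held 213 of the 795 receptor peaks (26.8%) and 393 of the 1475 receptor genes (26.6%). Chromosome 2 held 77 peaks (9.69%) beside 287 genes (19.5%), and 57 of these genes (19.9%, interval 15.7 to 24.9%) had a peak. On chromosome 14, 51 peaks went to 21 receptor symbols. On the X chromosome, 28 peaks went to 7.

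Most receptor peaks lay inside the clusters. The nearest protein-coding TSS was that of a receptor gene on both sides for 556 peaks (69.9%), on 1 side for 208 (26.2%) and on neither for 31 (3.90%). The median distance was 7.79 kb for the first of these groups, 27.5 kb for the second and 605.3 kb for the third. By the annotation, 692 peaks (87.0%) were intergenic, 84 (10.6%) intronic and 19 (2.39%) touched an exon. Vmn2r peaks were intronic in 31.7% of cases (interval 25.2 to 39.1%) and Olfr peaks in 5.65% (interval 3.93 to 8.04%). Vmn2r genes have several coding exons, whereas the coding sequence of an Olfr gene lies in 1. Inside the gene they were assigned to were 51 peaks (6.42%), and 15 overlapped a protein-coding gene of another kind, such as 2 of the 4 Vmn2r120 peaks, which lay in introns of Emr1.

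Several of the genes with the most peaks were the first or last of their cluster. Olfr1507, which encodes the odorant receptor MOR28, had 20 peaks, 19 of them upstream, at 11.0 to 853.8 kb with a median of 580.6 kb. They lay on chromosome 14 between 53099331 and 53969409, and all 20 fell between the first and the last of the Trav genes, the variable segments of the T cell receptor alpha locus, around this gene. Among TSSs of any biotype, an antigen receptor V segment was the closest for 18 of the 20. By protein-coding TSSs, 2 of the 20 remained with Olfr1507 and 1 passed to its neighbour Olfr1508. All 20 held a run. In 9 of the 20, words of sequence that occur once in mm9 made up under 10% of the peak, and the median was 14.7%.

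Vmn2r-ps159, named as a Vmn2r pseudogene, had 15 peaks on the X chromosome between 121442500 and 122267120, all upstream at 193.2 to 1017.4 kb. The gene is not in the annotation used here, and by protein-coding TSSs none of its 15 peaks was closest to a receptor gene. Vmn2r121, also on the X chromosome, had 6 peaks at 59.9 to 501.0 kb, of which 2 stayed with it by GENCODE. Of these 6 peaks, 5 had under 10% unique sequence. Together, Olfr1507 and Vmn2r-ps159 gave 33 of the 57 receptor peaks beyond 100 kb.

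Olfr1505, the last Olfr gene of its cluster on chromosome 19, had 8 peaks, all downstream at 40.2 to 327.6 kb, of which 2 were closer to Tle4, a transcriptional corepressor gene. Olfr161 had 5 peaks, all upstream at 223.0 to 525.7 kb on chromosome 16. By protein-coding TSSs all 5 stayed with it, but among TSSs of any biotype none of the 5 was closest to a receptor gene, and 3 had under 10% unique sequence. The 6 peaks of Olfr464 on chromosome 11 were nearer to their gene. They lay at 1.81 to 27.9 kb, 4 upstream and 2 downstream. By protein-coding TSSs all 6 stayed with Olfr464, and among TSSs of any biotype 2 of the 6 were closest to a receptor gene.

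Over all receptor peaks, 726 (91.3%) were also closest to a receptor TSS by GENCODE protein-coding genes and 679 (85.4%) to the gene with the same symbol. The other 69 were closest to a gene of another kind, and 31 peaks outside the set were closest to a receptor gene. When TSSs of any biotype were allowed, 180 receptor peaks (22.6%) were closest to a gene that was not a receptor.

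Tas2r134, a bitter taste receptor gene alone on its part of chromosome 2, had 6 peaks at 30.6 to 73.6 kb, 3 on either side. The farthest of them was the widest receptor peak, with 2702 bp at 51408094 to 51410796, and its central 200 bp had no run longer than 14 bp. Tas2r119 on chromosome 15 had 5 peaks, all upstream at 34.3, 49.9, 82.3, 190.7 and 262.2 kb. Vmn1r1 had 4 peaks at 6.91, 9.21, 28.4 and 60.6 kb, and Vmn1r66 and Vmn1r78 also had 4, the most of a Vmn1r gene. On the other chromosomes with at least 20 receptor peaks, the genes with the most peaks were Vmn2r36 with 5 on chromosome 7, Vmn2r21 with 5 on chromosome 6, Olfr24 with 5 on chromosome 9, Olfr1408 with 5 on chromosome 1, Vmn2r120 with 4 on chromosome 17, Olfr267 with 4 on chromosome 4, Olfr1357 with 3 on chromosome 10 and Olfr1364 with 2 on chromosome 13. On chromosome 7 Vmn2r38, Vmn2r47 and Vmn2r54 had as many as Vmn2r36, and on chromosome 13 Olfr1370, Vmn1r207-ps and Vmn1r213 as many as Olfr1364.

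Of the receptors best known from work on odorant receptor choice or from sites outside the nose and tongue, 6 of 12 had a peak, Olfr1507 and Tas2r119 among them, beside 33.3% of receptor genes and 45.5% of all protein-coding genes. With 12 genes this count says nothing about the group. Olfr2 had 2 peaks, 1.89 and 2.56 kb downstream of its TSS, with runs of 371 and 420 bp over the whole peak. Olfr16, which encodes MOR23, had 4 downstream peaks at 3.51, 10.7, 40 and 66.1 kb. Olfr78, known also from the kidney and the carotid body, had 1 peak 2.57 kb upstream with a run of 296 bp over the whole peak. Another peak, listed for Olfr560, lay within the annotated span of Olfr78, whose TSS was the closest by GENCODE at 15451 bp. Olfr160 had 1 peak 4.97 kb downstream. That last peak was nearest, by GENCODE, to Olfr151, at 4.96 kb. Olfr151, Olfr17, Olfr545, Olfr558, Tas2r105 and Tas2r108 had no peak in the list. Their closest peaks belonged to other genes and lay at 15.1 kb from Olfr17, 3.49 kb from Olfr545, 5.12 kb from Olfr558, 19.5 kb from Tas2r105 and 123.0 kb from Tas2r108. For Olfr545 and Olfr558 these were the peaks of the adjoining genes Olfr544 and Olfr557.

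The width of receptor peaks was that of the list. Their median was 469 bp (interval 453 to 479 bp) and that of the list 466 bp. The middle of the distribution reached from 379 to 579.5 bp, beside 375 to 576 bp in the list. Vmn2r peaks had a median of 497 bp (interval 478 to 523 bp), Tas2r peaks of 480, Olfr peaks of 454.5 and Vmn1r peaks of 437 bp (interval 398 to 484 bp). The narrowest receptor peak had 220 bp and lay 3.23 kb upstream of Olfr228. The longest run, of 1387 bp, was under a peak of 1994 bp on chromosome 7 (114952071 to 114954065), 5.03 kb upstream of Olfr467, and no peak of the whole list had a longer one.

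Of the 40 receptor peaks without a run in the central 200 bp, 19 had one elsewhere in the peak. They carried 39 symbols, lay at a median distance of 16.0 kb, and were 542.5 bp wide in the median. The TAAT core was present in 31 of the 40, and in 1065 of the 2855 peaks of the list without a run. The median GC content of the 40 windows was 41.5% and that of the 2855 was 50.5%. In the 40 peaks, 31-base words that occur once in mm9 made up a median of 39.5%, beside 60.1% over all receptor peaks. The part of base composition and of repeated sequence in the TAAT shares was not tested. The 10 nearest to a TSS belonged to Olfr186 at 0.854 kb, Vmn1r172 at 2.42 kb, Olfr322 at 2.72 kb, Olfr1341 at 3.16 kb, Olfr631 at 3.41 kb, Olfr806 at 3.41 kb, Olfr736 at 3.76 kb, Olfr126 at 4.12 kb, Olfr735 at 4.47 kb and Olfr1166 at 5.50 kb. The Olfr186, Vmn1r172, Olfr1341, Olfr631 and Olfr735 peaks had a run of 68 to 148 bp outside the window.

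The sequence under receptor peaks was less often unique in the genome. The share of 31-base words of a peak that occur once in mm9 had a median of 60.1% over all receptor peaks, and of 69.5% over 792 other peaks, every 60th of those outside the set. It was 64.5% for Olfr, 64.0% for Tas2r and 59.0% for Vmn1r peaks, and 40.4% for Vmn2r peaks. Under 10% unique words were found at 93 receptor peaks (11.7%, interval 9.65 to 14.1%) and at 3.03% of the other peaks (interval 2.04 to 4.47%). Of the 93, 60 were Vmn2r peaks, or 35.9% of that family (interval 29 to 43.4%). In 61 receptor peaks no word was unique. They included all 15 peaks of Vmn2r-ps159 and all 5 of Vmn2r36. The Vmn2r36 peaks lay at 7831372 to 7875408 and again at 8536932 to 8581066 on chromosome 7, and the listed distances in both places nearly matched, at 19.8 and 19.9 kb upstream and at 23.6 and 23.6 kb downstream. No receptor peak had the same 200 bp window as another. The second place is closest, by GENCODE, to Gm3991. Without the 93 peaks, a choice made after seeing the data, 31.5% of receptor genes had a peak and the median distance was 8.93 kb.

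**Figure D5:**
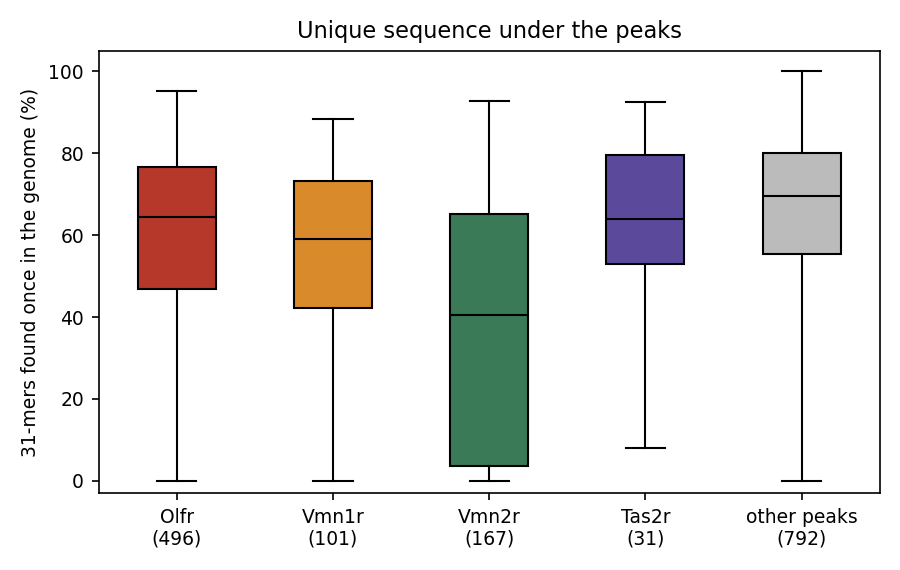
Percentage of the 31-base words of a peak that occur once in mm9, for the 4 receptor families and 792 other peaks. Boxes span the lower to the upper quartile with the median as a line and whiskers reach the lowest and highest peak, and the box of Vmn2r peaks, with a median of 40.4%, reaches down to 3.59%.

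Beside the receptor families, other tandem gene families were counted by symbol. The share to read them against is the 45.5% of all protein-coding genes with a peak. A peak was listed for 2 of 15 Taar genes (13.3%, interval 3.74 to 37.9%), the trace amine-associated receptors of the olfactory epithelium. It was listed for 8 of 55 Hist1h genes (14.5%, interval 7.56 to 26.2%), 12 of 41 Defb genes (29.3%, interval 17.6 to 44.5%) and 14 of 46 Krtap genes (30.4%, interval 19.1 to 44.8%). All 4 intervals lay below that share, whereas it lay below the intervals of 35 of 60 Serpin genes (58.3%, interval 45.7 to 69.9%) and 38 of 58 Cyp2 genes (65.5%, interval 52.7 to 76.4%). The median territory of these families ran from 5.36 kb for Hist1h to 65.7 kb for Cyp2 genes. Taar territory held 9.01 peaks per Mb (interval 1.09 to 32.6) and Hist1h territory 18.2 (interval 9.07 to 32.5). Defb territory held 20.9 (interval 14.4 to 29.4) and Krtap territory 26.8 (interval 17.97 to 38.5). Serpin territory held 19.9 (interval 16.0 to 24.3) and Cyp2 territory 16.5 (interval 12.8 to 20.8). The 19.0 per Mb outside receptor territory lay inside each of these density intervals. Among 12 genes chosen for the chemical senses, 7 had a peak (58.3%, interval 32.0 to 80.7%), Omp, Gnal, Ano2, Trpc2, Gnat3, Lhx2 and Ebf1. The 45.5% of all protein-coding genes lay inside this interval. Gnal, the olfactory G protein subunit, had 7 peaks with the closest 1.66 kb upstream, and Omp, the olfactory marker protein, had 1 peak 4.2 kb downstream. No peak was listed for Adcy3, Cnga2, Trpm5, Plcb2 or Ldb1. Of the 12, Lhx2, Ebf1 and Ldb1 encode transcriptional regulators rather than signalling proteins. Of 17 cardiac genes, 14 (82.4%, interval 59.0 to 93.8%) had a peak, at a median territory of 184.4 kb. The study names these genes as primary targets of Isl1, from its binding in embryos or cultured progenitors together with expression. They were thus partly chosen for having a peak, and their share is no independent contrast. By GENCODE, 91.2% of genes other than receptors with a territory of 100 to 250 kb had a peak in it. The territories of the 17 genes held 109 peaks, or 22.0 per Mb (interval 18 to 26.5). The 19.0 per Mb outside receptor territory lay inside this interval. Of the 48 peaks listed for the 17 genes, 45 (93.8%) held a run.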

How the data were processed

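The E8.25-E9 embryo sample was immunoprecipitated with the Isl1 antibody and sequenced. Per the labels and the methods, the authors aligned reads to mm9 with bowtie2 at default settings, used Picard 1.136 against duplicate reads, obtained peaks from MACS, took out blacklisted regions and annotated peaks with annotatePeaks.pl. The deposited distance to the TSS is a signed score in bp, and positions are as deposited. Per the methods, the authors intersected peaks of replicates with Bedtools to find shared areas, whereas the labels name 1 immunoprecipitated sample, and whether the deposited list is such an intersection is not stated. Depth is unknown, and the input was not analysed here.

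Each peak was joined by symbol, and by its midpoint to the closest TSS, with GENCODE vM1 on NCBIM37 (mm9). Uninterrupted purines or pyrimidines over 25 bp or more were searched within 100 bp of the midpoint, and 31-base words were counted over the genome. Shares have Wilson intervals, densities exact Poisson intervals and medians order-statistic intervals, all at 95% and for counting error only. No group comparison could be tested with 1 sample. Named genes were the 10 with most peaks and the leader of each family (ties by symbol order, with 9 genes tied at 5 peaks for the last 4 places), the 10 nearest to a TSS, the widest, narrowest, farthest and longest-run peaks, the 10 nearest without a run, 12 studied receptors and the leader of each chromosome with at least 20 receptor peaks. The members and lists were chosen with earlier results of these data known. SciPy 1.17.1, pandas 2.3.3, matplotlib 3.10.9 and numpy 2.4.6 were run in Python 3.11.15, and the scripts were tested on simulated data.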

Additional observations from a re-analysis of the deposited data

How the results depend on the processing

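Of 31 alternatives, 18 left the value within its counting interval or tolerance and 13 moved it. For the mean number of peaks per gene, a fixed tolerance of 1.03 to 2.32 was used in place of a counting interval. The share of receptor genes with a peak was 29.1% with other biotypes counted and 21.3% within 10 kb. It was 18.7% for peaks wider than the median of the list and 9.97% for at least 2 peaks. Other protein-coding genes stood at 22.7% within 10 kb, 34.4% for the wider peaks and 28.1% for at least 2 peaks. With the wider peaks alone, receptor territory held 6.99 peaks per Mb and 92.1% of receptor peaks had a run. The rest of the genome then held 9.48 peaks per Mb, and 90.9% of the wider peaks of the list had a run. For runs of at least 40 bp the share of peaks with a run was 92.5% for receptors and 91.2% for the list. Over the whole peak it was 97.4% and 96.3%. Of runs of at least 25 bp, 15.0% were under a peak in receptor territory and 14.3% elsewhere. Over all annotated receptor genes there were 0.508 peaks per gene, and over all protein-coding genes 1.62. Without peaks under 10% unique, an alternative chosen after seeing the data like the omission of Olfr1507 and Vmn2r-ps159, there were 12.8 peaks per Mb, the median distance was 8.93 kb and 96.6% of peaks had a run. Without chromosome 7 all 7 values stayed within their interval or tolerance. No paired analysis was possible because only the immunoprecipitated sample has values here. With 1 library of unknown depth, a gene without a listed peak is not shown to be unbound.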
